A study of Mus musculus with 19 samples.

Results

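Collagen chain genes encode the polypeptides that wind in threes into collagen triple helices. They were taken by symbol (Col, a number, a, a number) from the probe sets that carry exactly 1 gene symbol, with the brightest probe set kept for a gene with more than 1. The rule gave 42 chains of 30142 genes measured, out of 44 collagen chain genes in the mouse RefSeq table. Col7a1 and Col6a4 were left out because their probe sets carry several symbols. By class there were 11 fibrillar, 6 basement membrane, 9 FACIT (fibril-associated with interrupted triple helices) and 4 transmembrane chains. The others were 5 beaded filament, 2 multiplexin and 3 short-chain network chains, and 2 chains of no such class.

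The arrays measured infrarenal aortae of C57BL/6J mice, an inbred laboratory strain. At 10 weeks of age the aorta was infused for 5 min at 120 mmHg with type I porcine pancreatic elastase (PPE) at 2.5 U/mL in saline, a model of abdominal aortic aneurysm, or with saline alone (sham). The infused infrarenal segment was taken on day 7. There were 7 male PPE, 5 male sham, 4 female PPE and 3 female sham arrays, each of 1 mouse, so that 12 arrays made up the male cohort and 7 the female cohort. All mice had surgery and none was transgenic per the labels. The values are log2 signals. Array medians lay between 5.61 and 5.85 in males and between 6.17 and 6.31 in females, so PPE was compared with sham within each sex and levels were not compared between the sexes.

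Collagens give the vessel wall its tensile strength and its basement membranes. Types I and III form the load-bearing fibrils of media and adventitia, type IV chains form the sheet-like network that surrounds each smooth muscle cell and underlies the endothelium, and type VI chains form beaded filaments close to the cell surface. FACIT chains decorate the surface of fibrils, and multiplexins lie in the zone between basement membrane and fibrils.

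In males PPE was followed by lower signals of basement membrane, beaded filament and multiplexin chains, while no fibrillar or transmembrane chain passed the test. With limma and Benjamini-Hochberg adjustment over all genes, 15 of the 42 chains were lower in PPE aortae and 0 were higher. That is 35.7% lower, against 9.98% lower and 9.67% higher among all genes measured (19.7% called in either direction). With only genes above the median signal kept, 13 of 30 chains were lower and 0 higher. Of the genes so kept, 16.9% were lower and 18.2% higher. The 15 were all 6 type IV chains, all 5 type VI chains measured, both multiplexins, and the FACIT chains Col14a1 and Col19a1. None of the 11 fibrillar and none of the 4 transmembrane chains passed the threshold of 0.05. At an unadjusted p below 0.05 the 11 fibrillar chains gave 1 (9.09%) and the 4 transmembrane chains 0, against 29.4% of all genes.

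The median log2 difference, PPE minus sham, in males was -0.50 for basement membrane, -0.70 for beaded filament and -1.01 for multiplexin chains. It was -0.03 for fibrillar, -0.01 for FACIT, -0.05 for transmembrane and 0.17 for short-chain network chains. The median over all 42 chains was -0.07, against 0.01 over all genes. Every male PPE array was below every male sham array for 8 chains (19.0%), against 4.68% of all genes. Of the FACIT chains only Col12a1, Col14a1 and Col16a1 averaged above the median gene (6.46), with male differences of 0.61, -0.38 and -0.17. A filter that kept genes above the median signal therefore left the FACIT median at -0.17, the value of Col16a1. The part of low signal in the small differences of the other FACIT chains was not tested. The sign of the small fibrillar median depended on the scaling, at 0.02 under median centring and 0.06 under quantile normalization.

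In females 3 of the 42 chains were lower in PPE aortae, Col4a3, Col4a5 and Col4a6, and 0 were higher. That is 7.14% lower, against 1.45% lower and 2.77% higher among all genes (4.22% called in either direction). The medians were -0.37 for basement membrane, -0.44 for beaded filament and -0.45 for multiplexin chains, and -0.10, -0.09, -0.08 and 0.01 for fibrillar, FACIT, transmembrane and short-chain network chains. The median over all 42 chains was -0.10, against -0.02 over all genes. Every female PPE array was below every female sham array for 13 chains (31.0%), against 8.86% of all genes. With only genes above the median signal kept, 2 of 30 chains were lower and 0 higher, against 3.34% lower and 6.28% higher of those genes. The number of mice limits the precision here: with any single female array but PPE 4 left out, 1 chain (Col4a5) was called. Without female sham 1 the female median was -0.205 for beaded filament and 0.0075 for fibrillar chains.

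**Figure D1:**
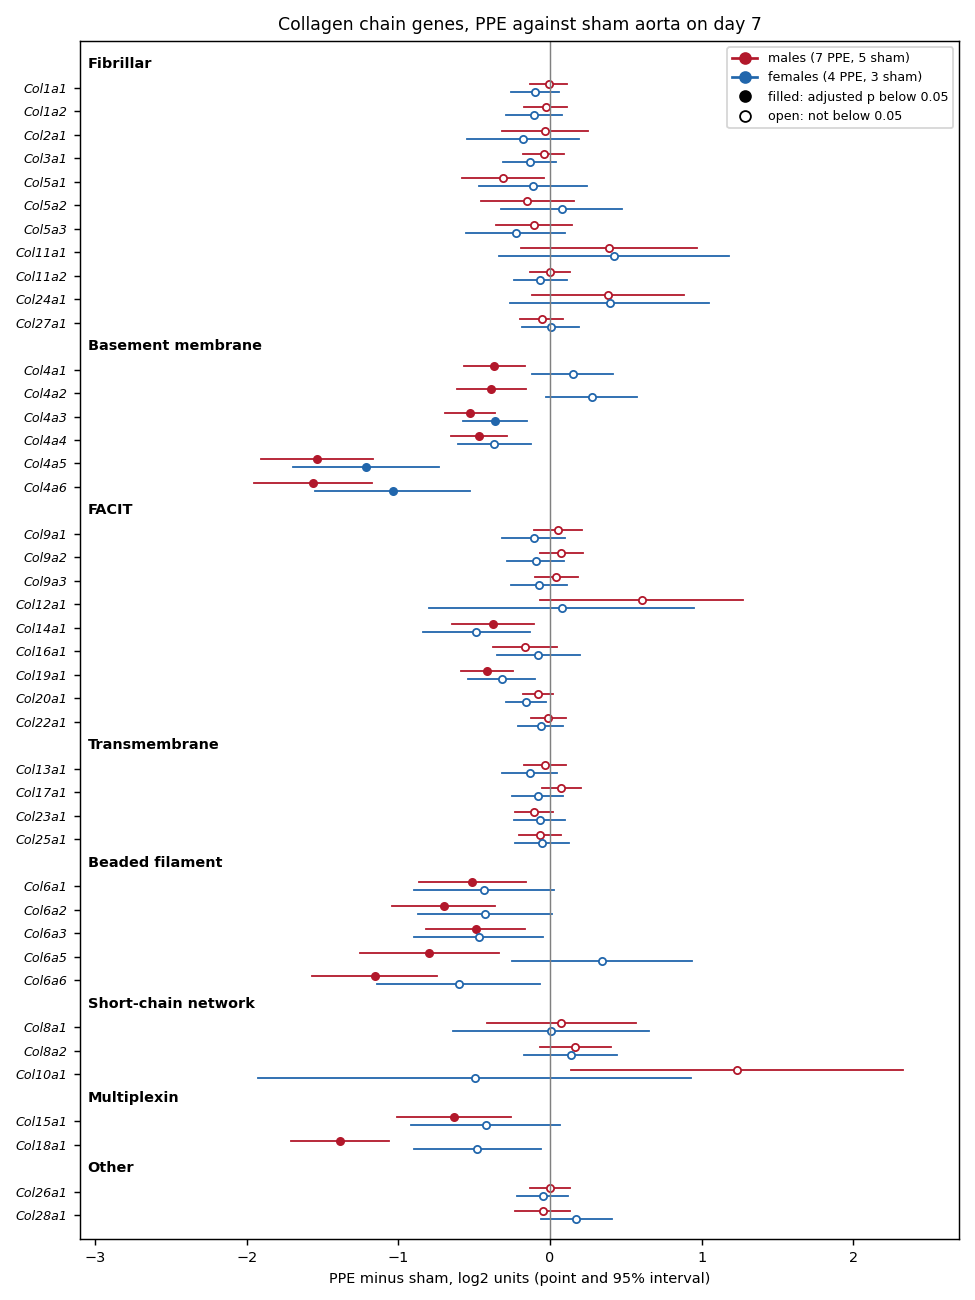
Difference between PPE and sham aortae (horizontal axis, log2 units) for the 42 chains by class. Points are limma estimates with 95% intervals in males (red, 7 PPE and 5 sham) and females (blue, 4 PPE and 3 sham), and filled points have an adjusted p below 0.05. The 15 filled male points and the 3 filled female points all lie below 0.

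The type IV chains come as 3 pairs of neighbouring genes that point away from each other. On the GRCm38.p6 build (mm10) Col4a1 and Col4a2 on chromosome 8 overlap by 85 bases, Col4a4 and Col4a3 on chromosome 1 by 114 bases, and Col4a6 and Col4a5 on the X chromosome lie 1274 bases apart. The bases before the start of Col4a5 and Col4a6, the pair with the largest falls, are shown here next to those of Col18a1, which fell in males, and of Col1a2, a fibrillar chain that was not called. The sequences are from RefSeq, 5′ to 3′ on the gene's own strand, and end at the base before the gene's annotated start.
Col4a5 (chrX:141475169-141475369, plus strand): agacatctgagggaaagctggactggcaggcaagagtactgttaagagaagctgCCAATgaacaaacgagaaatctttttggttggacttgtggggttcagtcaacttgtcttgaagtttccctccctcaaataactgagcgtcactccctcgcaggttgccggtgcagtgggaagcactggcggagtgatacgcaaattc
Col4a6 (chrX:141474096-141474326, minus strand): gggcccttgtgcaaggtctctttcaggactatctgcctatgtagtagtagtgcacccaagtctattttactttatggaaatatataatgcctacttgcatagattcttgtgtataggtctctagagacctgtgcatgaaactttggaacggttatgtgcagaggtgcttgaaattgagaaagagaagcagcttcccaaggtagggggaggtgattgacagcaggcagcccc
Col18a1 (chr10:77166531-77166780, minus strand): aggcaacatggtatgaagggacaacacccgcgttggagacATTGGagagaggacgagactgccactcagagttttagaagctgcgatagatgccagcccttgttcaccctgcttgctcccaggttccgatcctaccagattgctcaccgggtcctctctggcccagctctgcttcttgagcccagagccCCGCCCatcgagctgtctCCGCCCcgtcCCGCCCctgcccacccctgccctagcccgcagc
Col1a2 (chr6:4505368-4505617, plus strand): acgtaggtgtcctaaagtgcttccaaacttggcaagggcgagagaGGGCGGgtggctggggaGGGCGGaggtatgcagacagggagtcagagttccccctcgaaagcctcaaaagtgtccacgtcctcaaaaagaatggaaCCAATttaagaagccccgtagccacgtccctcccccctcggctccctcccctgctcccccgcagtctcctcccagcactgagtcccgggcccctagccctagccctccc
Capitals mark the GC box (GGGCGG or CCGCCC) and the CCAAT box (CCAAT or ATTGG). The 201 bases of Col4a5 hold 1 CCAAT box and no GC box, and the 231 bases of Col4a6 hold neither. The longer promoter windows counted below run past the annotated starts of Col4a5 and Col4a6. Each of these windows holds 1 GC box that the printed bases do not contain, so its absence here depends on where the printed bases end. The 250 bases of Col18a1 hold 3 GC boxes and 1 CCAAT box, and those of Col1a2 hold 2 GC boxes and 1 CCAAT box.

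Promoter windows of 300 bases (250 before and 50 after the start) were at hand for 33 chains, with 36 windows. The GC box occurred in 21 of the 36 (58.3%), against 35.7% of all 32851 windows. The CCAAT box occurred in 11 (30.6%), against 37.4%. The TATA box (TATAAA or TTTATA) occurred in 5 (13.9%), against 13.6%, and the CArG box, the motif bound by serum response factor in smooth muscle genes, in 0 against 1.63%. Both strands were searched, and neighbouring motifs can share letters. Of the 15 windows of chains lower in males, 9 held a GC box, 4 a CCAAT box and 0 a TATA box, against 12, 7 and 5 of the 21 windows of the other chains. These matches describe the letters in the windows only.

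Col4a5 and Col4a6, whose proteins join in the network of smooth muscle basement membranes, fell in both sexes. Col4a5 (X: 141475370 to 141689236) lay between 7.59 and 8.30 in the 7 male PPE arrays, with a median of 7.88, against 9.96, 9.70, 9.05, 8.98 and 9.70 in male sham arrays. In females it was 8.54, 8.59, 8.67 and 9.18 in PPE arrays, against 9.93, 9.69 and 10.26 in sham arrays. The groups did not overlap in either sex. PPE minus sham was -1.54 ± 0.18 (SE) in males, adjusted p = 6.37e-06, or 34.4% of sham on the linear scale. In females it was -1.22 ± 0.23, adjusted p = 0.00646, or 43.1% of sham.

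Col4a6 (X: 141165403 to 141474095) lay between 6.14 and 6.78 in male PPE arrays, with a median of 6.36, against 8.43, 7.92, 7.36, 7.61 and 8.59 in male sham arrays. In females it was 7.07, 7.07, 7.20 and 7.65 in PPE arrays, against 8.21, 8.13 and 8.52 in sham arrays. Again every PPE array was below every sham array of its sex. The log2 difference between PPE and sham came to -1.56 ± 0.19 in males, adjusted p = 9.1e-06, and -1.04 ± 0.24 in females, adjusted p = 0.0196. Without any single female array other than PPE 4 the female difference was between -1.12 and -0.92 and the adjusted p between 0.0561 and 0.0927.

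Col4a3 and Col4a4, which pair with Col4a5 in the filtration membrane of the kidney, had smaller differences. Col4a3 (1: 82586921 to 82722059) lay between 5.78 and 6.03 in male PPE arrays, with a median of 5.88, against 6.65, 6.37, 6.19, 6.35 and 6.58 in male sham arrays. It was 6.37, 6.37, 6.39 and 6.60 in female PPE arrays, against 6.71, 6.85 and 6.83 in female sham arrays. It averaged below the median gene over all arrays (6.46), and the groups did not overlap in either sex. In log2 units, PPE minus sham was -0.53 ± 0.08 in males, adjusted p = 7.26e-05, and -0.36 ± 0.10 in females, adjusted p = 0.0494.

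The female call of Col4a3 was lost when any of 13 arrays was left out, with differences between -0.41 and -0.34 and adjusted p between 0.0534 and 0.2. The 6 arrays that could be left out were female PPE 4, male sham 1, male sham 3, male sham 4, male sham 5 and male PPE 1. Under the robust prior with a trend the adjusted p was 0.0516. Col4a4 (1: 82448419 to 82587034) lay between 6.03 and 6.52 in male PPE arrays, with a median of 6.34, against 6.91, 6.66, 6.56, 6.72 and 6.96 in male sham arrays. It was 6.85, 6.84, 6.93 and 7.06 in female PPE arrays, against 7.25, 7.25 and 7.36 in female sham arrays. No arrays of PPE and sham overlapped in either sex. The log2 difference was -0.47 ± 0.09 in males, adjusted p = 0.00072, and -0.37 ± 0.11 in females, where the adjusted p was 0.0873. The female difference was called under median centring (adjusted p = 0.0465), quantile normalization (0.0149), array weights (0.0134), a fit of the female arrays alone (0.0327), and without male sham 4, male sham 5 and male PPE 1 (0.0397).

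Col4a1 and Col4a2, the chains of the type IV network found in nearly all basement membranes, fell in males and were not called in females. Col4a1 (8: 11198423 to 11312889) lay between 10.65 and 11.09 in male PPE arrays, with a median of 10.96, against 10.97, 11.40, 11.39, 11.09 and 11.60 in male sham arrays. It was 11.24, 11.28, 11.17 and 11.09 in female PPE arrays, against 11.09, 11.06 and 10.99 in female sham arrays. The groups overlapped in both sexes. PPE minus sham was -0.37 ± 0.10 in males, adjusted p = 0.0105, and 0.15 ± 0.13 in females, adjusted p = 0.706.

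Col4a2 (8: 11312805 to 11449287) lay between 10.99 and 11.56 in male PPE arrays, with a median of 11.39, against 11.41, 11.79, 11.80, 11.60 and 12.17 in male sham arrays. It was 11.88, 11.75, 11.76 and 11.72 in female PPE arrays, against 11.54, 11.49 and 11.48 in female sham arrays. In males the groups overlapped, while in females every PPE array was above every sham array. The log2 difference between PPE and sham came to -0.39 ± 0.11 in males, adjusted p = 0.0157, and 0.27 ± 0.14 in females, adjusted p = 0.403, with a 95% interval from -0.02 to 0.57. In a fit of the male arrays alone the male adjusted p was 0.0594.

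**Figure D2:**
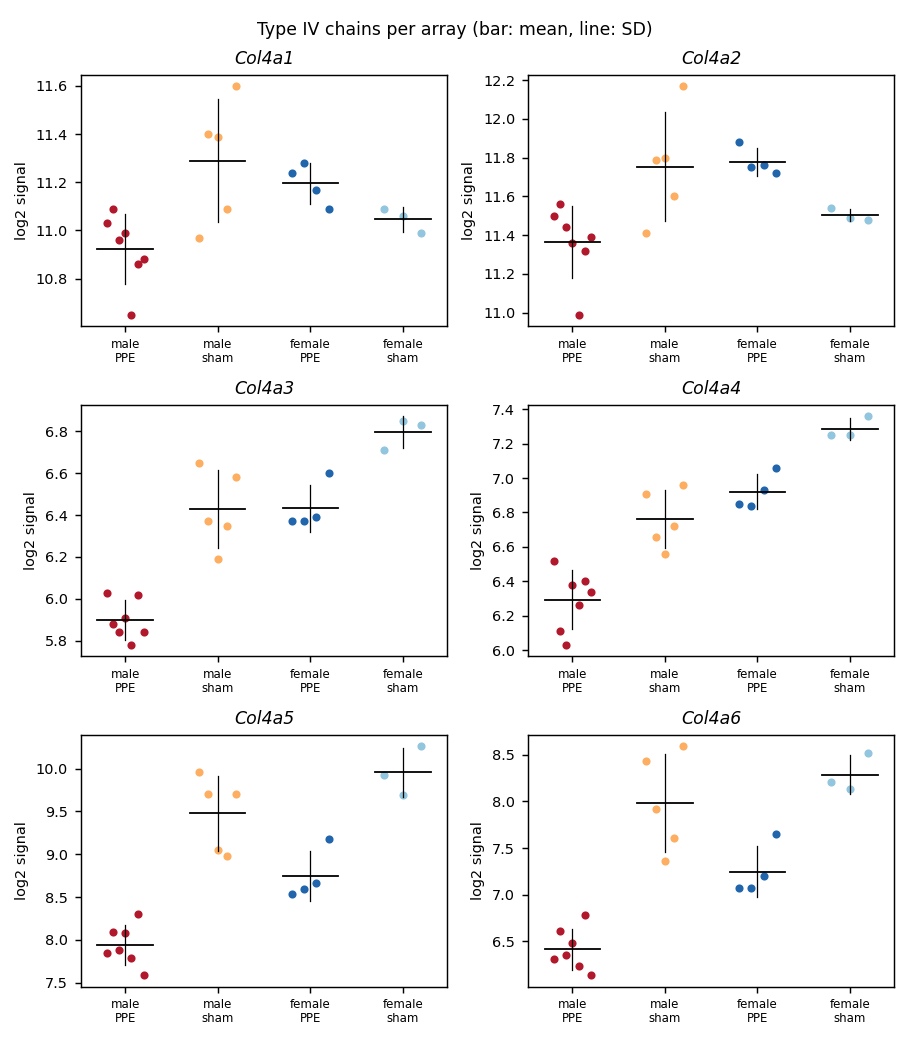
Log2 signal of the 6 type IV chains (vertical axis) in each array, for male PPE, male sham, female PPE and female sham aortae. Points are arrays, bars are means and lines are SD; PPE lies below sham without overlap in both sexes for Col4a3, Col4a4, Col4a5 and Col4a6, and in neither sex for Col4a1 and Col4a2.

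The 3 neighbouring pairs also varied together among arrays of the same group. Correlations between type IV chains of different pairs are not given here, so the values do not show a trait of neighbours alone. The deviations from the group means over 19 arrays correlated with Pearson's r = 0.94 and Spearman's rho = 0.86 for Col4a1 and Col4a2 (permutation within groups, adjusted p = 6e-05 and 0.00032 over 6 pairs of chains). Without the 2 arrays farthest out on Col4a1 r was 0.89, and it was 0.96 in the 12 male and 0.55 in the 7 female arrays. For Col4a3 and Col4a4 r was 0.78 and rho 0.73 (permutation, adjusted p = 0.000732 and 0.00299). Without the 2 farthest arrays r was 0.75, and it was 0.78 in males and 0.82 in females.

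For Col4a5 and Col4a6 r was 0.90 and rho 0.93 (permutation, adjusted p = 8e-05 and 6e-05), r was 0.87 without the 2 farthest arrays, 0.89 in males and 0.98 in females. The smallest raw p that the 100000 permutations can give is 1e-05. The median r over all 861 pairs of chains was 0.07. Of the other 3 pairs computed, Col1a1 and Col1a2, the chains of type I, lie on different chromosomes and had r = 0.76 (rho 0.74, permutation, adjusted p = 0.00039 and 0.00102). The correlation was 0.93 for Col6a1 and Col6a2 (rho 0.92, adjusted p = 6e-05 and 0.00012), which lie 85161 bases apart on chromosome 10. It was 0.79 for Col3a1 and Col5a2, of types III and V, which lie 24624 bases apart on chromosome 1 (rho 0.66, adjusted p = 0.00475 and 0.0171). Without the 2 farthest arrays these 3 values were 0.82, 0.95 and 0.65, in males 0.62, 0.90 and 0.77, and in females 0.97, 0.99 and 0.87. Arrays of 1 aorta share its cell mixture and its array signal, so these are descriptions of covariation.

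**Figure D3:**
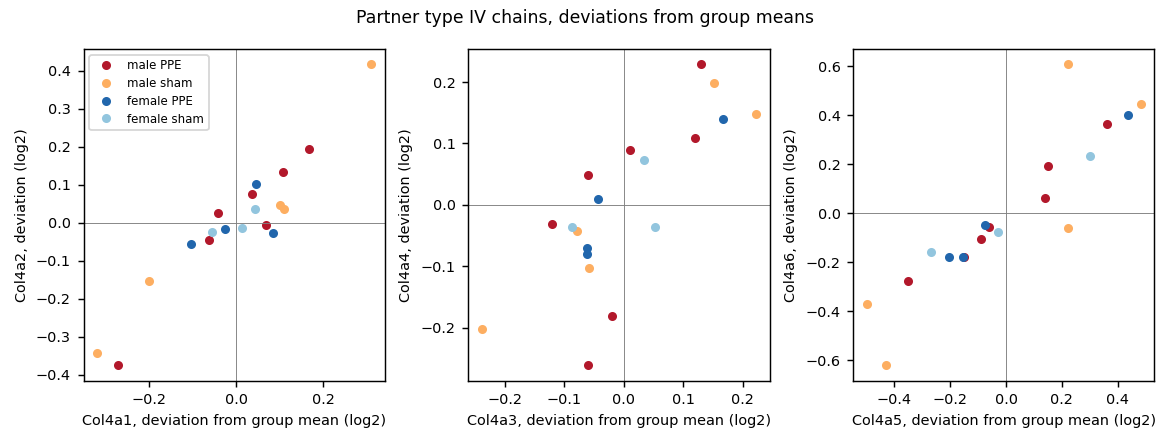
Deviation of each array from its group mean (log2) for 3 pairs of neighbouring type IV genes, coloured by group. Col4a5 and Col4a6 (right) follow each other with r = 0.90 over 19 arrays, Col4a1 and Col4a2 (left) with r = 0.94, and Col4a3 and Col4a4 (centre) with r = 0.78.

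Both multiplexins fell in males. Col18a1 (10: 77052178 to 77166530), a heparan sulfate proteoglycan of basement membranes whose end fragment is endostatin, lay between 9.26 and 9.88 in male PPE arrays, with a median of 9.72. The male sham arrays had 10.99, 11.00, 10.54, 10.90 and 11.72. It was 10.35, 10.23, 10.15 and 10.32 in female PPE arrays, against 10.85, 10.60 and 10.78 in female sham arrays. The groups did not overlap in either sex. In log2 units, PPE minus sham was -1.39 ± 0.15 in males, adjusted p = 4.85e-06, or 38.3% of sham, and -0.48 ± 0.20 in females, adjusted p = 0.239, which was 0.0195 in a fit of the female arrays alone.

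Col15a1 (4: 47207655 to 47313167), which links basement membranes to the fibrils around them, lay between 10.34 and 11.07 in male PPE arrays, with a median of 10.80. The male sham arrays had 11.50, 11.97, 11.54, 10.57 and 11.60, of which sham 4 fell within the PPE range. It was 11.32, 11.47, 11.26 and 11.40 in female PPE arrays, against 12.04, 11.50 and 11.82 in female sham arrays, without overlap. The log2 difference was -0.63 ± 0.18 in males, adjusted p = 0.0166, and -0.42 ± 0.23 in females, adjusted p = 0.451. Without male sham 2 the male difference was -0.50 with an adjusted p of 0.0571, and in a fit of the male arrays alone the adjusted p was 0.0501.

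Of the type VI chains, Col6a6 had the largest male difference. Col6a6 and Col6a5 encode alternative chains that can take the place of Col6a3. Col6a6 (9: 105689417 to 105828246) lay between 7.28 and 7.94 in male PPE arrays, with a median of 7.72, against 9.36, 9.36, 8.01, 8.68 and 8.67 in male sham arrays. It was 8.18, 8.73, 8.15 and 8.48 in female PPE arrays, against 8.91, 8.82 and 9.23 in female sham arrays, and the groups did not overlap in either sex. PPE minus sham was -1.16 ± 0.20 in males, adjusted p = 0.000292, or 44.8% of sham, and -0.60 ± 0.26 in females, adjusted p = 0.257.

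Col6a5 (9: 105856070 to 105962463) lay between 8.61 and 9.83 in male PPE arrays, with a median of 9.53, against 10.32, 10.38, 9.87, 10.61 and 9.44 in male sham arrays. It was 8.54, 8.34, 8.73 and 8.84 in female PPE arrays, against 8.08, 8.37 and 8.36 in female sham arrays. The groups overlapped in both sexes. The log2 difference between PPE and sham came to -0.80 ± 0.22 in males, adjusted p = 0.0133, and 0.34 ± 0.28 in females, adjusted p = 0.694.

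Col6a1 and Col6a2, the 2 chains present in every type VI molecule, fell in males. Col6a2 (10: 76595756 to 76623630) lay between 11.85 and 12.38 in male PPE arrays, with a median of 12.11, against 12.81, 13.08, 13.13, 12.50 and 12.64 in male sham arrays, without overlap. It was 12.51, 12.85, 12.21 and 12.95 in female PPE arrays, against 13.60, 12.75 and 12.82 in female sham arrays, with overlap. In log2 units, PPE minus sham was -0.70 ± 0.16 in males, adjusted p = 0.00407, and -0.43 ± 0.21 in females, adjusted p = 0.368. Female sham 1 was the highest female array, and without it the female difference was -0.155.

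Col6a1 (10: 76708792 to 76726044) lay between 13.96 and 14.39 in male PPE arrays, with a median of 14.14, against 14.80, 15.02, 15.03, 14.26 and 14.22 in male sham arrays. It was 14.57, 15.01, 14.32 and 14.94 in female PPE arrays, against 15.61, 14.86 and 14.97 in female sham arrays. The groups overlapped in both sexes, in males through sham 4 and sham 5. The log2 difference was -0.51 ± 0.17 in males, adjusted p = 0.0397, and -0.44 ± 0.22 in females, adjusted p = 0.385. The male call was lost without any one of male sham 1, 2 or 3 or male PPE 1, 3, 4, 5, 6 or 7, with differences between -0.52 and -0.42 and adjusted p between 0.0528 and 0.115. It was also lost under median centring (adjusted p = 0.116), quantile normalization (0.16) and the robust prior with a trend (0.0512). Without female sham 1 the female difference was -0.205.

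Col6a3 (1: 90766860 to 90844001), the usual partner of Col6a1 and Col6a2, lay between 13.28 and 14 in male PPE arrays, with a median of 13.57, against 13.93, 14.20, 14.31, 13.87 and 14.34 in male sham arrays. It was 14.09, 14.54, 13.93 and 14.32 in female PPE arrays, against 15.20, 14.30 and 14.57 in female sham arrays. The groups overlapped in both sexes. PPE minus sham was -0.49 ± 0.16 in males, adjusted p = 0.0326, and -0.47 ± 0.20 in females, adjusted p = 0.269. Without any one of male sham 2, 3 or 5 or male PPE 2, 4, 5 or 6 the male difference was between -0.48 and -0.43 and the adjusted p between 0.0538 and 0.0858. The male call was also lost under median centring (adjusted p = 0.0794), quantile normalization (0.077), and without male sham 4, male sham 5 and male PPE 1 (0.054). Without female sham 1 the female difference was -0.215.

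Among the FACIT chains, Col14a1, which binds the surface of type I fibrils, and Col19a1, which lies in basement membrane zones, were lower in males. Col19a1 (1: 24257683 to 24587922) lay between 5.55 and 5.86 in male PPE arrays, with a median of 5.71, against 6.24, 5.99, 5.90, 6.36 and 6.09 in male sham arrays. It was 5.88, 5.93, 6.00 and 6.10 in female PPE arrays, against 6.13, 6.34 and 6.42 in female sham arrays. The groups did not overlap, and the chain averaged below the median gene. The log2 difference between PPE and sham came to -0.42 ± 0.08 in males, adjusted p = 0.00108, and -0.32 ± 0.11 in females, adjusted p = 0.113.

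Col14a1 (15: 55307644 to 55520803) lay between 15.01 and 15.25 in male PPE arrays, with a median of 15.09, against 15.77, 15.79, 15.71, 14.83 and 15.42 in male sham arrays. It was 15.86, 15.83, 15.86 and 15.68 in female PPE arrays, against 16.22, 16.15 and 16.51 in female sham arrays. In males sham 4 was below every PPE array, and in females the groups did not overlap. In log2 units, PPE minus sham was -0.38 ± 0.13 in males, adjusted p = 0.049, and -0.49 ± 0.17 in females, adjusted p = 0.134. The male call was lost without any single array other than female sham 3 or male sham 4, with adjusted p between 0.0544 and 0.145. It was also lost under median centring (0.131), quantile normalization (0.223), the robust prior with a trend (0.079) and in a fit of the male arrays alone (0.11). In females it was called without male sham 4 (adjusted p = 0.00961), with array weights (0.00551), in a fit of the female arrays alone (0.0312), and without male sham 4, male sham 5 and male PPE 1 (0.00369).

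**Figure D4:**
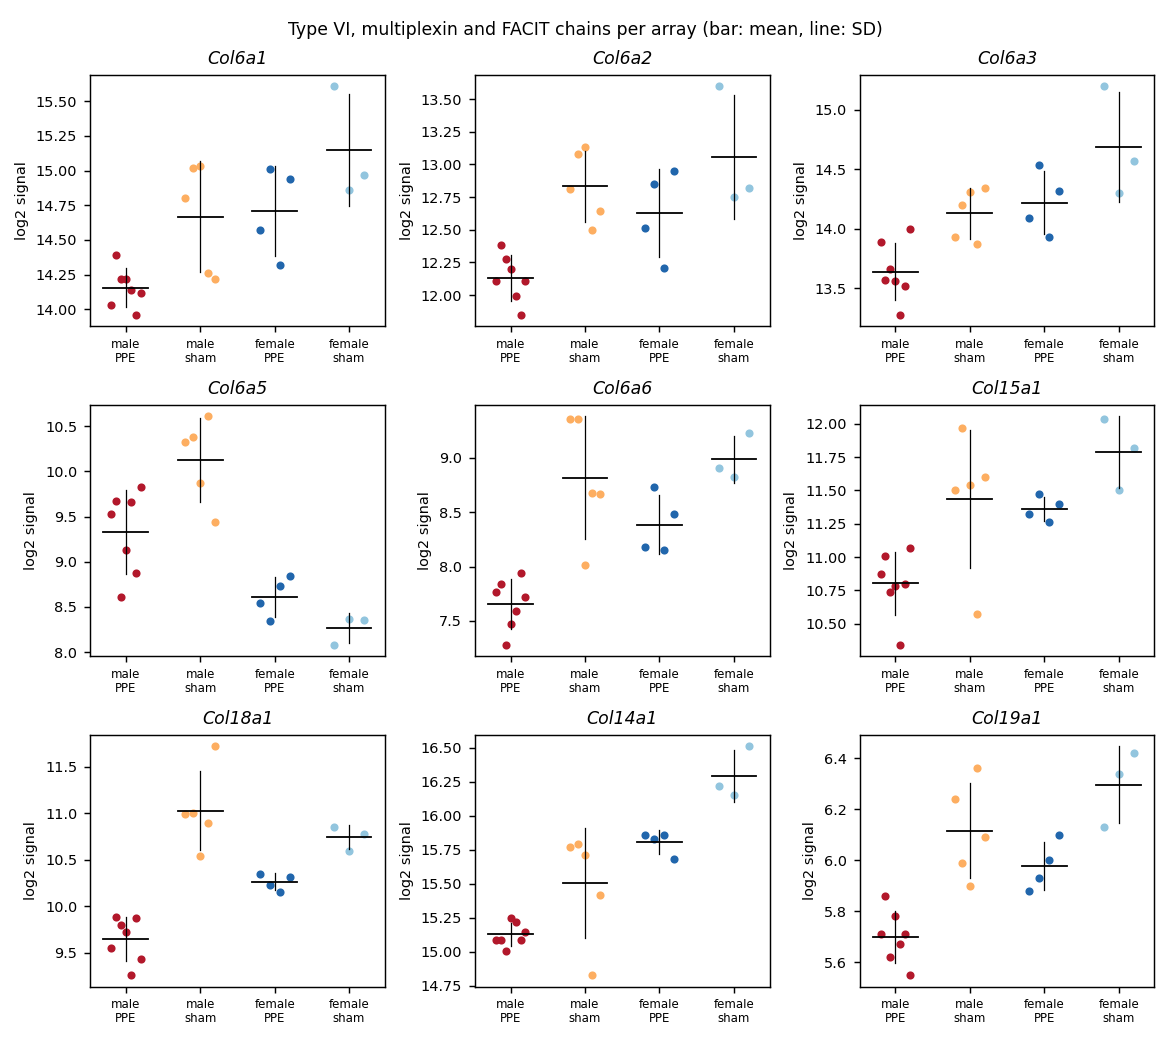
Log2 signal (vertical axis, scaled for each chain) of the 5 type VI chains, the 2 multiplexins and the FACIT chains Col14a1 and Col19a1 in each array, by group. Points are arrays, bars are means and lines are SD. In males no PPE array overlaps a sham array for Col6a2, Col6a6, Col18a1 and Col19a1.

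The other 7 FACIT chains did not pass the test in either sex. Their log2 differences ran from -0.17 (Col16a1) to 0.61 (Col12a1) in males. Col12a1, a stress-responsive chain of tendon and wound fibrils, lay between 12.97 and 14.13 in male PPE arrays, with a median of 13.89, against 12.55, 12.88, 14.55, 12.54 and 12.88 in male sham arrays. Sham 3 was the highest of the 12. The log2 difference was 0.61 ± 0.32, adjusted p = 0.222, and without male sham 3 it was 0.97 with an adjusted p of 0.00789. Col12a1 was named after its values were seen, as were Col11a1, Col24a1, Col10a1 and Col5a1 below.

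The 3 major fibrillar chains, Col1a1 and Col1a2 of type I and Col3a1 of type III, lay near the top of the array scale. The 99th percentile of an array lay between 16.58 and 17.33 and its highest value between 19.68 and 19.93. Col1a1, Col1a2 and Col3a1 were above the 99th percentile in all 19 arrays and the other 39 chains in none. The nearest chain outside was Col14a1, with 14.83 to 16.51. The distance to the array's highest value was 0.33 to 1.45 log2 units for Col1a1, 0.87 to 1.77 for Col1a2 and 0.81 to 1.66 for Col3a1.

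Col1a1 (11: 94936224 to 94953042) lay between 19.15 and 19.36 in male PPE arrays, with a median of 19.33, against 19.32, 19.36, 19.41, 19.19 and 19.29 in male sham arrays. It was 18.48, 18.67, 18.67 and 18.63 in female PPE arrays, against 18.80, 18.61 and 18.72 in female sham arrays, with overlap in both sexes. PPE minus sham was -0.01 in males (95% interval -0.13 to 0.11) and -0.10 in females (-0.26 to 0.06). Col1a2 (6: 4505618 to 4541543) lay between 18.79 and 18.85 in male PPE arrays, with a median of 18.81, against 18.89, 18.93, 19.03, 18.69 and 18.67 in male sham arrays. It was 18.16, 18.41, 18.37 and 18.34 in female PPE arrays, against 18.51, 18.29 and 18.48 in female sham arrays. The groups overlapped, with differences of -0.03 in males (-0.17 to 0.11) and -0.11 in females (-0.29 to 0.08).

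Col3a1 (1: 45311538 to 45349706) lay between 18.88 and 18.96 in male PPE arrays, with a median of 18.93, against 19.01, 19.10, 19.10, 18.81 and 18.82 in male sham arrays. It was 18.27, 18.42, 18.30 and 18.30 in female PPE arrays, against 18.58, 18.30 and 18.49 in female sham arrays. The groups overlapped, with differences of -0.04 in males (-0.18 to 0.09) and -0.13 in females (-0.31 to 0.04). In males the sign of these 3 small differences turned to positive under median centring (0.04, 0.02 and 0.01) and quantile normalization (0.05, 0.18 and 0.13). A p above the threshold does not show that levels were equal, and whether changes are compressed this near the top of the scale was not tested.

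Shares called were counted by signal band, which does not test compression. The band above the 99th percentile of every array starts at 16.58 to 17.33, depending on the array, below the 3 chains. Of its 123 genes, 16.3% were called in males and 1.63% in females, and 0.813% differed at least 2-fold in males. Of 509 genes with a mean signal between 14 and 16, these shares were 22.0%, 4.13% and 6.88%. Of 3648 genes with a mean signal between 10 and 14, 33.1% were called in males and 10.0% in females, and 10.5% differed at least 2-fold in males. The spread within groups was small for the 3 chains, with a residual SD of 0.08 for Col1a1, 0.11 for Col1a2 and 0.10 for Col3a1, against a median of 0.25 over the 123 genes.

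**Figure D5:**
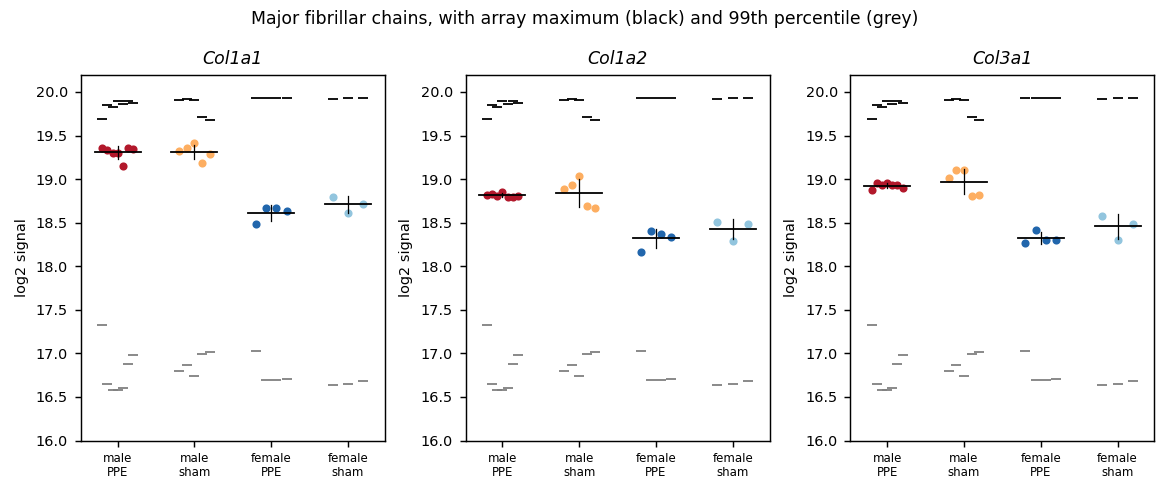
Log2 signal of Col1a1, Col1a2 and Col3a1 (vertical axis) in each array by group, with the array's highest value (black ticks) and 99th percentile (grey ticks). Points are arrays, bars are means and lines are SD; all points lie above the grey ticks, and PPE and sham overlap in both sexes.

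The other 8 fibrillar chains lay below that range and were not called in either sex, with log2 differences from -0.31 (Col5a1) to 0.39 (Col11a1) in males and from -0.23 (Col5a3) to 0.42 (Col11a1) in females. Col5a1, which sets the width of type I fibrils, had a difference of -0.31 ± 0.13 in males, adjusted p = 0.111, and under quantile normalization it was called at -0.41, adjusted p = 0.0382. Col11a1, a chain of cartilage fibrils, had 0.39 ± 0.28 in males, adjusted p = 0.398. Without male sham 3 it was called higher at 0.72, adjusted p = 0.016. Col24a1, a minor fibrillar chain, had 0.38 ± 0.24, adjusted p = 0.325, and without male sham 4 it was called higher at 0.62, adjusted p = 0.0431. Male sham 3 had the highest mean of the chondrocyte markers among the 12 male arrays, 7.38, against 6.43 to 6.82 in male PPE and 6.19 to 6.86 in the other male sham arrays, and the part of this in the Col11a1 and Col12a1 values was not tested.

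Transmembrane chains, which stand in the cell membrane with their collagen domains outside, gave differences from -0.11 to 0.07 in males and from -0.13 to -0.05 in females. The brightest of them, Col23a1 (11: 51289679 to 51583925), lay between 6.46 and 6.79 in male PPE arrays, with a median of 6.68, against 6.71, 6.71, 6.88, 6.74 and 6.71 in male sham arrays. It was 7.01, 6.92, 7.03 and 6.99 in female PPE arrays, against 7.04, 6.98 and 7.15 in female sham arrays. The groups overlapped, with differences of -0.11 in males (95% interval -0.23 to 0.02) and -0.07 in females (-0.24 to 0.10). Of the 42 chains, 12 averaged below the median gene, among them Col13a1, Col17a1 and Col25a1 of this class, and no detection call was used here.

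Col8a1 (16: 57624256 to 57754737), a short chain that smooth muscle and endothelial cells make in injured vessels, lay between 9.32 and 10.23 in male PPE arrays, with a median of 9.75, against 9.56, 9.63, 10.45, 8.77 and 10.17 in male sham arrays. It was 10.13, 9.54, 10.09 and 10.45 in female PPE arrays, against 10.34, 9.75 and 10.05 in female sham arrays. The groups overlapped, with differences of 0.08 in males (95% interval -0.42 to 0.57) and 0.01 in females (-0.64 to 0.65). Col10a1, the chain of hypertrophic cartilage, lay between 5.28 and 8.69 in male PPE arrays, with a median of 7.52, against 5.51, 6.07, 6.78, 5.18 and 5.31 in male sham arrays. The groups overlapped, and the difference of 1.23 ± 0.52 had an adjusted p of 0.115. Without male PPE 5 it was 1.52 with an adjusted p of 0.0357. In females Col10a1 was 7.47, 6.75, 7.60 and 7.24 in PPE arrays, against 7.89, 6.74 and 8.66 in sham arrays, a difference of -0.50 ± 0.68 (adjusted p = 0.844).

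Col28a1 (6: 7997100 to 8193709), a chain of peripheral nerve, lay between 6.61 and 6.95 in male PPE arrays, with a median of 6.75, against 6.76, 6.96, 6.65, 7.07 and 6.59 in male sham arrays. It was 6.81, 6.94, 6.82 and 7.15 in female PPE arrays, against 6.69, 6.81 and 6.77 in female sham arrays. The groups overlapped, with differences of -0.05 in males (95% interval -0.23 to 0.13) and 0.17 in females (-0.06 to 0.41).

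The difference between the male and the female response was tested for every chain. At an adjusted p below 0.05, 0 of the 42 chains differed (limma), against 0.541% of all genes, 0.501% with the lower and 0.0398% with the higher response in males. At an unadjusted p below 0.05 there were 4 chains, or 9.52%, against 9.95% of all genes. These 4 were named for that p. The male minus female response was -0.66 ± 0.18 for Col4a2, the lowest adjusted p of the chains at 0.109, and -0.90 ± 0.25 for Col18a1, adjusted p = 0.125. It was -0.52 ± 0.16 for Col4a1, adjusted p = 0.183, and -1.14 ± 0.36 for Col6a5, adjusted p = 0.194. With array weights 3 of the 4 were called, under a setting that called 3.09% of all genes, Col18a1 at -0.90 (adjusted p = 0.0199), Col4a2 at -0.63 (0.0276) and Col6a5 at -1.21 (0.0284), and without male sham 3 Col18a1 was called at -1.03 (0.0321). For Col4a5 the response difference was -0.32, with a 95% interval from -0.93 to 0.28, and for Col4a6 it was -0.53, from -1.17 to 0.12. Array medians also differed between the sexes. Neither the labels nor the processing notes name a batch, so sex cannot be told apart from a possible batch.

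Markers of several cell types also differed between PPE and sham. In bulk tissue fewer cells of a type and less RNA per cell cannot be told apart. Beside the counts below stand 9.98% lower and 9.67% higher of all genes in males, and 1.45% and 2.77% in females. Of the 8 smooth muscle markers, 8 were lower in males (median log2 difference -2.14) and 7 in females (-1.48). Their mean lay between 10.57 and 11.81 in male PPE and between 12.56 and 13.69 in male sham arrays, and between 11.59 and 12.32 in female PPE and between 12.93 and 13.47 in female sham arrays. Among them Lmod1, which seeds actin filaments, fell by 2.35 and Smtn, a contractile filament protein, fell by 1.78 in males, and Cnn1 fell by 1.96 and Acta2, the smooth muscle actin, fell by 0.84 in females. The Acta2 group means, 17.62 to 18.58, lay above the highest 99th percentile of an array (17.33), where compression was not tested.

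Of the 7 fibroblast markers measured, 6 were lower in males and 2 in females. Their mean was 13.08 to 13.54 in male PPE and 13.48 to 14.38 in male sham arrays, and 13.45 to 13.96 in female PPE and 14.18 to 14.52 in female sham arrays. Cd34 fell by 0.82 in males and 0.73 in females. Dpt fell by 1.02 in males and had -1.04 in females, where it was not called. Pi16 fell by 0.74 in males and 1.07 in females. Of the 6 endothelial markers, 3 were lower in males, with Tek at -0.89, Vwf at -0.86 and Pecam1 at -0.48, and 0 in females. The 3 not called in males were Cdh5 at -0.07, Emcn at 0.03 and Kdr at 0.21. In females the 6 markers went both ways, with Vwf at -0.905, Tek at -0.53, Pecam1 at -0.29, Emcn at 0.09, Cdh5 at 0.16 and Kdr at 0.37. Their mean was 10.79 to 11.18 in male PPE and 11.32 to 11.40 in male sham arrays, and 11.47 to 11.77 in female PPE and 11.60 to 12.06 in female sham arrays.

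Of the 7 macrophage markers, 6 were higher in males and 1 in females. Their mean was 14.08 to 15.08 in male PPE and 11.85 to 13.74 in male sham arrays, and 14.15 to 14.99 in female PPE and 13.56 to 13.77 in female sham arrays. Fcgr1 rose by 3.31 in males and 1.86 in females. Itgam rose by 1.91 in males and had 1.11 in females, where it was not called. No marker of adipocytes, Schwann cells, chondrocytes, mesothelium or skeletal muscle was called in either sex. The adipocyte mean was 12.52 in male sham 4, against 7.72 to 8.58 in the other male sham and 8.37 to 9.35 in male PPE arrays. Skeletal muscle markers stood at 10.39 in female PPE 2 and 11.78 in female sham 1, against 6.03 to 6.21 in the other female arrays, and at 7.99 in male PPE 6, against 5.45 to 5.88 in the other male arrays. The part of these mixtures in the collagen values was not tested. Male sham 4, male sham 5 and male PPE 1, which also had the 3 lowest array maxima (19.68 to 19.71), stood apart in an earlier analysis of these arrays. Without all 3 there were 14 chains called in males, against 19.5% of all genes, and 5 in females, against 8.14% of all genes (4.22% with them).

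The genes that build, fasten, bind and break down collagen were counted from lists. Of all genes measured, 9.98% were lower and 9.67% higher in males, and 1.45% were lower and 2.77% higher in females. The lists are small and no set test was made. Of 18 modifying and folding genes measured, 3 were lower in males and 2 in females. P3h2, which hydroxylates proline in type IV chains, fell by 1.34 ± 0.19 in males (adjusted p = 6.7e-05) and by 0.98 ± 0.25 in females (0.035). P4ha2, a subunit of the main prolyl hydroxylase, fell by 0.41 in females (0.0273) and 0.30 in males (0.00944), and Tmem38b, an endoplasmic reticulum ion channel, by 0.37 in males (0.00197). Of 10 genes of propeptide removal and crosslinking, 2 were lower in males and 1 in females. Pcolce2, an enhancer of propeptide removal, fell by 0.90 in males (0.0236) and 1.43 in females (0.0271). Loxl1, a lysyl oxidase of elastic fibres, fell by 0.79 in males (0.00211) and had -0.49 in females (0.289). Lox itself had 0.24 in males (adjusted p = 0.62) and 0.02 in females (0.989).

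Of 9 collagen receptors, 1 was higher and 2 were lower in males, and 1 was higher in females. Lair1, an inhibitory receptor of immune cells, rose by 1.69 ± 0.25 in males (adjusted p = 7.15e-05) and 1.22 ± 0.32 in females (0.0393). Ddr2, a receptor kinase for fibrillar collagen, fell by 0.99 in males (9.55e-05) and had -0.66 in females (0.0666). Of 9 collagen-degrading proteases, 3 were higher in males and 0 in females. Mmp8, the neutrophil collagenase, rose by 1.30 ± 0.23 in males (0.00044) and had 1.08 in females (0.0501). Ctss, a cathepsin of macrophages, rose by 1.77 ± 0.28 in males (0.000178) and had 1.12 in females (0.114). Mmp13, an interstitial collagenase, was not called, with 1.61 in males and 2.86 in females (0.164 and 0.129).

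Of 10 regulators of fibril assembly, 4 were lower in males and 2 in females. Tnxb, a tenascin that spaces fibrils, fell by 1.76 ± 0.28 in males (0.000164) and had -1.15 in females (0.096). Ogn, a small leucine-rich proteoglycan, fell by 1.13 ± 0.24 in males (0.00189) and 1.46 ± 0.31 in females (0.0109). Fn1, the fibronectin on which type I fibrils are laid down, fell by 0.21 in males (0.0257) and 0.32 in females (0.039). The medians of these 5 lists, in males and females, were -0.15 and -0.22 for modification, -0.14 and -0.04 for propeptide removal and crosslinking, -0.25 and -0.06 for receptors, 0.35 and 0.28 for proteases, and -0.24 and -0.28 for fibril regulators, against 0.01 and -0.02 over all genes.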

How the data were processed

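Affymetrix Clariom D arrays were hybridised with 100 ng of total RNA, 1 mouse per array, per the labels. The deposited values are log2 signals with 2 decimals, made by the authors with the Transcriptome Analysis Console on mm10, per the submitters' processing notes. Neither the labels nor those notes name a scan date or batch, and the software version, summarisation and background correction were not given in the sources used here.

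Among 65956 probe sets, 30604 had 1 symbol, 2146 several and 33206 none in the annotation used. RefSeq (GRCm38.p6) symbols replaced 827 older ones, and 355 genes measured by several probe sets were represented by the brightest. This gave 30142 genes, 29837 of them in RefSeq. The number of unmapped columns was 0, and no 2 arrays shared more than 2.50% of their values.

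The deposited values went without further normalization into limma 3.58.1 (R 4.3.3), with 1 mean per group and 1 residual variance per gene over the 19 arrays. This shared variance lets female arrays bear on male calls and the reverse. It also takes the spread to be equal in all groups. Some called chains spread more in male sham than in male PPE arrays (Col14a1, SD 0.41 against 0.08), and others did not (Col6a3, 0.22 against 0.24). A fit with a separate variance for each group was not made, so SE and p can be too small where sham spread more. PPE minus sham was taken in each sex, and the male minus female response. A gene was called where the adjusted p (Benjamini-Hochberg, 30142 genes) was below 0.05. Intervals are 95%. The procedure was tested on simulated data.

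Named with values were chains called in either sex or in the sex difference, chains near the ceiling, and the brightest chain of each class. Of each other list the 2 called genes with the lowest p in each sex were named. Lox, Mmp13, Vwf, Cdh5, Emcn, Kdr and values of a named gene in its other sex were added after they were seen. Members, classes, lists and tests were chosen with earlier results of these data known. Near the ceiling means above the 99th percentile of probe sets in every array. Correlations used 100000 permutations within groups. The alternatives changed the scaling (median centring or quantile normalization), the genes (a filter on dim ones, the mean over probe sets), the variance (a robust prior with a trend, array weights, or the compared groups alone) and the arrays (each left out, 3 male arrays left out). A fit with the replicate number as a block was also made. The number of arrays limits the precision of each value.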

Additional observations from a re-analysis of the deposited data

Results flagged for a closer look

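In groups of 4 to 7 arrays, 9 of 126 values of the highest or lowest array lay farther from the rest than Dixon's 95% criterion allows. Chance alone would give about 6.3 (1 in 20). Male PPE 5 had the lowest Col1a1 at 19.15 (others 19.30 to 19.36) and the lowest Col4a2 at 10.99 (others 11.32 to 11.56). Male PPE 1 had the highest Col11a2 at 6.26 (others 5.95 to 6.08). Female PPE 4 had the highest Col4a3 at 6.60 (others 6.37 to 6.39) and the lowest Col14a1 at 15.68 (others 15.83 to 15.86).

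Male sham 4 had the highest Col9a2 at 6.26 (others 6.03 to 6.08) and the highest Col9a3 at 6.22 (others 6.03 to 6.07). Male sham 3 had the highest Col12a1 at 14.55 (others 12.54 to 12.88) and the highest Col23a1 at 6.88 (others 6.71 to 6.74). Female sham, with 3 arrays, was too small to be examined.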

How the results depend on the processing

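The number of chains called in males (15) was between 9 and 16 over 28 alternatives, and between 11 and 16 with each array left out in turn. In females (3) it was between 1 and 7, with 7 under array weights (13.1% of all genes called), 6 with only the groups compared (6.54%), 5 without male sham 4, male sham 5 and male PPE 1 (8.14%), and between 1 and 4 with each array left out. For the sex difference (0) it was 3 under array weights (3.09% of all genes) and between 0 and 1 with each array left out. With the replicate number as a block the counts were 9, 1 and 0 (11.7%, 2.12% and 0% of all genes), and the male calls of Col4a1, Col4a2, Col6a1, Col6a3, Col14a1 and Col15a1 and the female calls of Col4a3 and Col4a6 were lost. The labels do not say whether the numbers pair the mice. Same-numbered deviations correlated between -0.32 and 0.24 over 8 pairs. Of the 8 PPE arrays, 2 were closest to the sham array of their own number. So few pairs cannot settle whether the numbers mark a pairing.

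Of 1253 values of single named chains under alternatives, 1143 kept sign and side of the threshold, 74 lost the call, 15 gained one and 21 changed sign, all of chains that were not called. In males Col1a1 was 0.0417 under median centring, 0.0451 under quantile normalization and -0.0393 to 0.0177 with an array left out. Col1a2 was 0.0223, 0.176 and -0.0707 to 0.0193, Col3a1 0.0077 and 0.129, and Col28a1 0.0011, 0.0307 and -0.103 to 0.0171 under the same settings. Col8a1 was -0.0933 in males without the 3 arrays and -0.161 to 0.259 with 1 left out, and in females -0.0907 under quantile normalization, -0.127 with the block and -0.143 to 0.177 with 1 left out. Of 448 class medians, 1 moved by more than the class's median residual SD, that of FACIT chains in males, to -0.168 under the filter on dim genes, where fewer chains are tested. Within that tolerance the fibrillar median ranged from -0.115 to 0.0598 in males and from -0.209 to 0.0075 in females, and in females that of beaded filament chains from -0.58 to -0.205 and that of short-chain network chains from -0.143 to 0.177. The other causes were not tested.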
